A study of Mus musculus with 12 samples.

Results

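Nuclear genes for the proteins of the mitochondrial ribosome were examined in PGCLCs (primordial germ cell-like cells) of the mouse, which model in culture the earliest cells of the germ line. The set held every gene of the deposited expression table whose symbol starts with Mrpl (large subunit) or Mrps (small subunit) followed by a number, which gave 75 of 12955 genes, 47 large and 28 small. All 75 had at least 1 FPKM (fragments scaled by transcript length and by mapped fragments) in at least 2 libraries, as did 12059 genes of the table, and the lowest value of any member in any library was 3.36 FPKM, for Mrps25. The members lay on 17 chromosomes. Mrpl53, Mrpl58 and Mrps23 were not analysed here.

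The series concerns Tex10, a nuclear protein with roles in pluripotency and in the maturation of cytosolic ribosomes. Bulk poly(A) RNA was sequenced from CD61 and SSEA1 sorted PGCLCs, taken from embryoid bodies of J1 male mouse embryonic stem cells. The 12 libraries formed 6 groups of 2: OE and EV at day 6, OE and EV at day 2, and dTAG13 and DMSO at day 2, where the dTAG13 and DMSO libraries had 2 days of treatment. The labels abbreviate OE and EV without spelling them out, name no clones and do not say whether the 2 libraries of a group came from separate cultures, so p values may measure technical spread only. dTAG13 is a degrader compound that acts on proteins carrying a suitable tag, and DMSO served as its vehicle. Tex10 protein was not measured.

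Mitochondria carry their own ribosomes, which translate a small number of membrane proteins of the respiratory chain encoded in mitochondrial DNA. The ribosomal RNAs come from that DNA, whereas every protein of the large and small subunits is encoded in the nucleus, made in the cytosol and imported. Some of these proteins have bacterial counterparts and keep their numbers, and others are found only in mitochondria. Germ cell precursors remodel their metabolism as they develop, and cells with little mitochondrial translation make little respiratory chain.

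At day 6 Tex10 read 259 and 269 FPKM in OE libraries, against 65.7 and 81.5 FPKM in EV libraries. At day 2 its level was 403 and 378 FPKM in OE libraries, against 119 and 145 FPKM in EV libraries. Tex10 read 45.2 and 36.5 FPKM with dTAG13 against 61.7 and 56.8 with DMSO. All 7 listed germ cell precursor markers were in the table and summed to 102 to 147 FPKM in the day 6 libraries. Their sum was 134 to 209 FPKM in the day 2 libraries of OE and EV, with up to 263 FPKM among the dTAG13 and DMSO libraries. Against day 2 OE and EV, Nanos3 (2.84 to 9.22 against 10.99 to 53.6 FPKM) and Dppa3 (7.05 to 21.2 against 27.1 to 41.8 FPKM) were lower at day 6. Prdm14 (23.9 to 36.6 against 19.01 to 21.6 FPKM) and Itgb3 were higher, and Dnd1, Prdm1 and Tfap2c overlapped. Of 17 listed markers of endoderm, mesoderm, neural ectoderm, trophoblast and fibroblasts, 7 were in the table, and they summed to 8.4 to 10.7 FPKM in the day 6 libraries, against 3.87 to 5.7 FPKM in the day 2 libraries of OE and EV, with up to 25.7 FPKM among the dTAG13 and DMSO libraries. The endoderm gene Gata4 read 3.95 to 5.29 FPKM in the day 6 libraries, against 0.761 to 1.23 FPKM in the day 2 libraries of OE and EV. Gata6 and Hand1 were also higher at day 6 than in those day 2 libraries. The neural gene Pax6 was lower, at 0.691 to 1.37 FPKM against 1.71 to 2.15 FPKM, and Krt7, Kdr and Col1a1 overlapped. The part of these markers in the results was not tested, and in bulk RNA fewer cells of a type cannot be told apart from less RNA per cell. In D2_dTAG replicate 1, 15.5% of the table's genes were listed at 0, against 0.139% to 0.980% in the other libraries, although no member was at 0 in any library.

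Mitochondrial ribosomal protein genes were well expressed. Their mean level over the 12 libraries had a median of 89.3 FPKM, against 10.5 FPKM for all tested genes, and 33 of the 75 reached 100 FPKM. Large subunit genes had a median of 87.6 FPKM and small subunit genes 91.1 FPKM. FPKM is a level per transcript length, so levels can be set side by side.

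The highest member was Mrpl42, a mitochondria-specific large subunit protein, with a mean of 509 FPKM. Mrpl20 (283 FPKM), Mrpl34 (265 FPKM) and Mrpl18 (263 FPKM), each the counterpart of the bacterial protein of the same number, came next in the large subunit. In the small subunit Mrps28 (216 FPKM), Mrps18c (207 FPKM), Mrps16 (198 FPKM) and Mrps12 (188 FPKM) were highest. Mrps12 corresponds to bacterial S12, which lies at the decoding centre. At the other end, Mrpl19 (5.81 FPKM), Mrpl41 (6.02 FPKM) and Mrpl35 (14.0 FPKM) were lowest in the large subunit. Mrps25 (5.32 FPKM), Mrps22 (35.5 FPKM) and Mrps14 (36.7 FPKM) were lowest in the small subunit. As background, a finished ribosome holds its proteins in single copies, with the exception of the stalk protein Mrpl12.

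The starts of these genes were compared next. Positions are those of GENCODE M21 (GRCm38). Of the 75 members, 33 (44.0%) had another protein-coding gene on the opposite strand with its start within 1000 bases, against 1873 of 11289 tested protein-coding genes (16.6%). Several of these partners also act in mitochondria or in translation. Mrps12 starts 172 bases from Sars2, the mitochondrial seryl-tRNA synthetase. Mrpl36 starts 29 bases from Ndufs6, a subunit of respiratory complex I, and Mrpl49 starts 59 bases from Fau, which encodes a cytosolic ribosomal protein. Mrpl46 and Mrps11 are partners of each other: their annotated bodies overlap at the start on opposite strands, with starts 412 bases apart.

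RefSeq promoter windows, from 250 bases before to 50 bases after the start, matched 66 of the 75 members by symbol (build GRCm38.p6). Motifs were searched on both strands by exact letters. The core of the NRF1 site, GCGCATGCG, was found in 7 member windows (10.6%), against 3.95% of 9120 other tested genes and 1.75% of all 32851 windows. The ETS site CCGGAAG was found in 22 member windows (33.3%), against 18.8% of other tested genes and 8.86% of all windows. The YY1 core AAGATGGCG was found in 8 member windows (12.1%), against 3.32% of other tested genes and 1.40% of all windows. The E-box CACGTG was found in 5 member windows (7.58%), against 10.7% of other tested genes and 7.15% of all windows. At least 1 of NRF1, ETS and YY1 was present in 32 member windows (48.5%), against 24.5% of other tested genes. A match is a run of letters and says nothing of whether a factor was bound.

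The windows of 6 members are given from 250 bases before the start to 30 bases past it, 5′ to 3′ on the strand of the gene, with matches to any of the 4 motifs in capitals. Mrpl16 is shown for its fall at day 6, Mrpl36 for its place among the largest falls in OE, Mrps18a and Mrps18b as paralogues, Mrps18b and Mrps27 as the members that changed with dTAG13, and Mrps11 for the window it shares with Mrpl46.
Mrpl16, chr19:11770165-11770444, plus strand: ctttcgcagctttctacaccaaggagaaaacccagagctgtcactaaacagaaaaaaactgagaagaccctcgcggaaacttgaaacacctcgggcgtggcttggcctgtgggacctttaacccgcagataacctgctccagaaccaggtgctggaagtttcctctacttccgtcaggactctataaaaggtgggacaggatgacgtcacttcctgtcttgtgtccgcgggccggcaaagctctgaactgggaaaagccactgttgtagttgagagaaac
Mrpl36, chr13:73330759-73331038, plus strand: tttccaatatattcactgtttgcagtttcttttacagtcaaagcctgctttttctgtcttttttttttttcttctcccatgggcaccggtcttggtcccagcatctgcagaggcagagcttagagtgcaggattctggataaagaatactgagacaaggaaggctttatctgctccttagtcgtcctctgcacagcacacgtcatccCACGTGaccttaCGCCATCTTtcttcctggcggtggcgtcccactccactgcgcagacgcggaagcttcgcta
Mrps18b, chr17:35916411-35916690, minus strand: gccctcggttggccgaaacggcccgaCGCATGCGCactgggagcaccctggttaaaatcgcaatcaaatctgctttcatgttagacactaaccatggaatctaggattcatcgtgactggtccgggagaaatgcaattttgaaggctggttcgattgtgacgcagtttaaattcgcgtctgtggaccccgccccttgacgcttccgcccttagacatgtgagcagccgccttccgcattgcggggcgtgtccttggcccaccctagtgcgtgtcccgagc
Mrps18a, chr17:46110754-46111033, plus strand: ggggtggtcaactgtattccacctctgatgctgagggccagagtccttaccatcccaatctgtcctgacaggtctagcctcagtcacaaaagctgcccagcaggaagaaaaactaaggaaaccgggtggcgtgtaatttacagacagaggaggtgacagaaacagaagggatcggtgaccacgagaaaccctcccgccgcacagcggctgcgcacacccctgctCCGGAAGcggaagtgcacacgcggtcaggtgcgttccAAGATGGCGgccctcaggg
Mrps27, chr13:99344536-99344815, plus strand: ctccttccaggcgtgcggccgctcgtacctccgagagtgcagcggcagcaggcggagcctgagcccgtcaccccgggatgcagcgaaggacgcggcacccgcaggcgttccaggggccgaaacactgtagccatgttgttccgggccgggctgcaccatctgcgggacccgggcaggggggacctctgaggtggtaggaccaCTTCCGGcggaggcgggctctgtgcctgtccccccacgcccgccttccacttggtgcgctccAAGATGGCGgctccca
Mrps11, chr7:78782881-78783160, plus strand: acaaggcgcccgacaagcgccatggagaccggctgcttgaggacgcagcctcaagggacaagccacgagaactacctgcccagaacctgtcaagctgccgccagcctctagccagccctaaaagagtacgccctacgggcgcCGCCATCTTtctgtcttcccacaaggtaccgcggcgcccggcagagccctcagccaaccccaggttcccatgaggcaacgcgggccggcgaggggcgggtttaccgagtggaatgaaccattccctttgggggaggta
The Mrpl16 window held none of the 4 motifs. Mrpl36 and Mrps11 each held the reverse complement of the YY1 core, at positions 220 and 143 of the window, counted from 1 at the 5′ end, and Mrpl36 also held an E-box at position 208. The RefSeq start of Mrpl36 lies 2496 bases downstream of its GENCODE start, so the stretch shown is not the one beside Ndufs6. Mrps18b held the reverse complement of the NRF1 core at position 27, and its ETS match lies in the part of the searched window past the stretch shown. Mrps18a and Mrps27 each paired an ETS match, at positions 225 and 203, with a YY1 core just past the start, at positions 262 and 265. The stretch shown for Mrps11 shares 121 bases with the window searched for Mrpl46.

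Between day 2 and day 6, mitochondrial ribosomal protein mRNA fell. In OE, 36 of 75 members were lower at day 6 and 0 were higher, against 14.7% lower and 17.5% higher among all tested genes. In EV, 23 of 75 members were lower at day 6 and 0 were higher, against 10.5% lower and 13.3% higher among all tested genes. Calls are an adjusted p below 0.05 from limma on log2(FPKM + 1), with Benjamini-Hochberg adjustment over all tested genes, and every change below is on that log2 scale. The shares of members that fell were 48.0% in OE and 30.7% in EV. The median member stood at -0.39 in OE and -0.29 in EV, while the median of all tested genes stood at 0.08 in OE and 0.04 in EV. At an unadjusted p below 0.05, in either direction, there were 47 members in OE (42.7% of all tested genes) and 39 in EV (36.8% of all tested genes). Both day 6 libraries lay below both day 2 libraries for 55 members in OE (35.9% of all tested genes) and 55 in EV (33.0%), and above them for 6 members in OE (46.0%) and 3 in EV (39.9%).

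**Figure D1:**
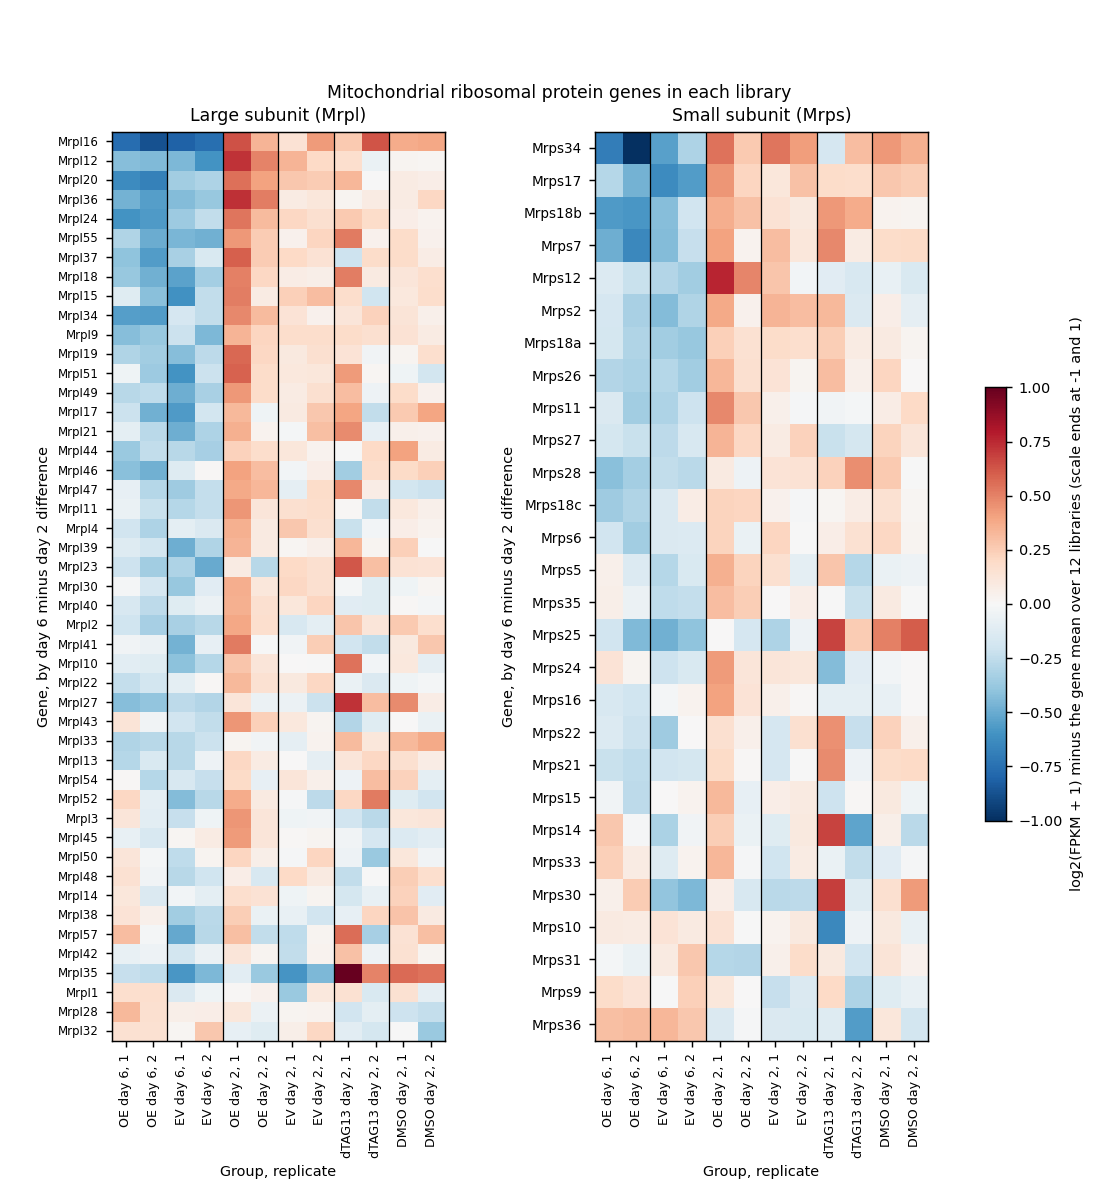
Each row is a member, with the large subunit at left and the small subunit at right, ordered by the difference between day 6 and day 2. Each column is a library, and the colour gives log2(FPKM + 1) minus the mean of that gene over the 12 libraries, on a scale that ends at -1 and 1. The 4 columns of day 6 are blue for most rows, with Mrps36 as an exception, and Mrpl35 and Mrps25 are red in the dTAG13 and DMSO columns alone.

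As a share of the summed FPKM of a library, the members took 1.19% and 1.17% in day 6 OE and 1.21% and 1.26% in day 6 EV. The same share was 1.49% and 1.42% in day 2 OE and 1.38% and 1.39% in day 2 EV. The 4 day 6 libraries lay below all 8 day 2 libraries, whose dTAG13 values were 1.40% and 1.39% and whose DMSO values were 1.38% and 1.40%. The day 6 share was 0.811 of the day 2 share in OE and 0.890 of it in EV. Of the members, 41 had all 4 day 6 OE and EV libraries below all 4 day 2 OE and EV libraries (54.7%, against 19.7% of all tested genes), and 1 had them above (1.33%, against 26.4%).

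**Figure D2:**
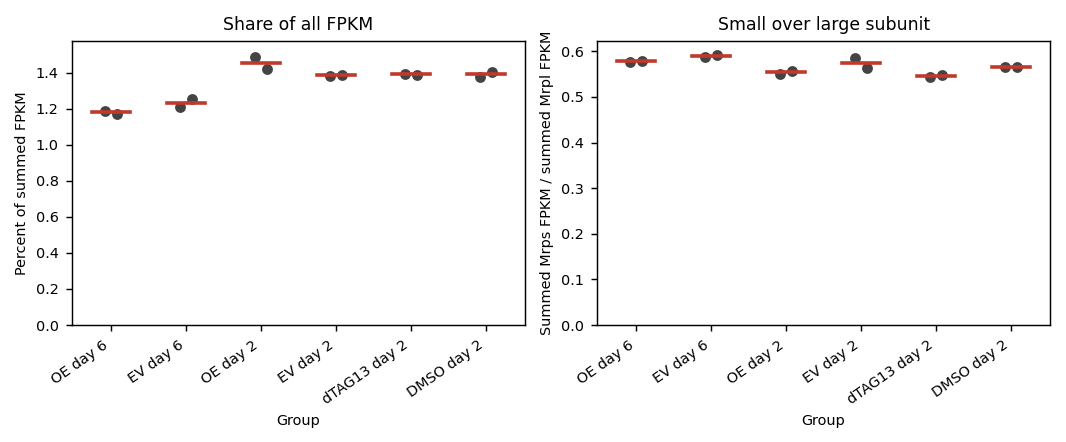
Left, the members' percent of the summed FPKM of each library. Right, summed small subunit FPKM over summed large subunit FPKM. Points are libraries and bars are group means of 2, with both axes from 0. The share is lowest in OE and EV at day 6 (means 1.18% and 1.23%), and the group means of the ratio run from 0.546 to 0.590.

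In the large subunit 24 of 47 members fell in OE, 13 in EV and 11 in both. Mrpl16 (chromosome 19, 11770391 to 11774960), counterpart of a bacterial protein that lies near the tRNA sites, changed most. Mrpl16 read 29.1 and 26.9 FPKM in day 6 OE and 28 and 29.1 FPKM in day 6 EV, against 78.1 and 63.6 FPKM in day 2 OE and 55.4 and 67.5 FPKM in day 2 EV. The 4 day 6 libraries lay below every day 2 library, and the dTAG13 (60.1 and 77.7 FPKM) and DMSO (64.8 and 65.5 FPKM) libraries sat with the rest of day 2. The log2 change was -1.30 in OE (SE 0.16, adjusted p = 0.000282) and -1.07 in EV (SE 0.16, adjusted p = 0.00148). The 10 nearest tested genes on the chromosome had medians of 0.02 in OE and 0.10 in EV. For the other largest falls in OE, such medians differed from gene to gene. In OE they were -0.49 for Mrps18b, -0.46 for Mrpl12, -0.41 for Mrps34 and -0.22 for Mrpl36. They were 0.002 for Mrpl20, 0.24 for Mrpl34 and 0.34 for Mrpl24. The part of neighbouring genes in the falls was not tested.

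Mrpl12, the flexible stalk protein that contacts elongation factors, read 169.9 and 168 FPKM in day 6 OE and 167 and 151 FPKM in day 6 EV, against 377 and 323 FPKM in day 2 OE and 289 and 263 FPKM in day 2 EV. The day 6 libraries were close to each other, and day 2 OE was above day 2 EV. Mrpl12 fell by 1.04 in OE (SE 0.11, adjusted p = 0.000172) and by 0.79 in EV (SE 0.11, adjusted p = 0.00133). Mrpl20, counterpart of a bacterial protein needed early in subunit assembly, read 177 and 171 FPKM in day 6 OE against 402 and 362 FPKM in day 2 OE, and 215 and 221 FPKM in day 6 EV against 330.0 and 326 FPKM in day 2 EV. It fell by 1.13 in OE (adjusted p = 9.25e-05) and by 0.59 in EV (adjusted p = 0.00462).

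Mrpl36, a very small protein of the large subunit, read 71.3 and 67.5 FPKM in day 6 OE against 165 and 142 FPKM in day 2 OE, and 73.1 and 76.1 FPKM in day 6 EV against 105 and 107 FPKM in day 2 EV. The groups of either pair did not overlap, and day 2 OE was the highest group. Mrpl36 fell by 1.13 in OE (adjusted p = 6.71e-05) and by 0.51 in EV (adjusted p = 0.00662). Mrpl34 read 177 and 176 FPKM in day 6 OE against 362 and 323 FPKM in day 2 OE, a fall of 0.95 (adjusted p = 8.51e-05). In EV the Mrpl34 change was -0.30 (adjusted p = 0.0419). Mrpl24, whose bacterial counterpart lies by the exit tunnel, fell by 1.01 in OE (adjusted p = 0.000102) and by 0.49 in EV (adjusted p = 0.00701). Mrpl15 (-0.70 in EV, adjusted p = 0.0249) and the mitochondria-specific Mrpl55 (-0.60 in EV, adjusted p = 0.0245) also fell.

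In the small subunit 12 of 28 members fell in OE, 10 in EV and 9 in both. Mrps34, a mitochondria-specific protein needed for a stable small subunit in mouse and human, read 100.2 and 72.9 FPKM in day 6 OE and 111 and 131 FPKM in day 6 EV, against 237 and 195 FPKM in day 2 OE and 237 and 218 FPKM in day 2 EV. Day 6 lay below day 2 in every OE and EV library, and the dTAG13 pair (145 and 202 FPKM) was spread more widely than the DMSO pair (219.9 and 209 FPKM). Mrps34 fell by 1.32 in OE (SE 0.19, adjusted p = 0.000709) and by 0.90 in EV (SE 0.19, adjusted p = 0.00752). Mrps34 overlaps Mapk8ip3 and Nme3, and the sources used here do not give whether reads were counted by strand.

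Mrps17, counterpart of an RNA-binding bacterial protein, read 54.2 and 47.2 FPKM in day 6 OE and 42.3 and 44.6 FPKM in day 6 EV, against 89.9 and 77.0 FPKM in day 2 OE and 71.7 and 81.3 FPKM in day 2 EV. It fell by 0.71 in OE (adjusted p = 0.00179) and by 0.80 in EV (adjusted p = 0.00161). Mrps2 stood at -0.69 in EV (adjusted p = 0.0146) and at -0.46 in OE (adjusted p = 0.0608). Mrps12 fell by 0.80 in OE (adjusted p = 0.00111) and by 0.45 in EV (adjusted p = 0.0279).

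The paralogues Mrps18a, Mrps18b and Mrps18c descend from 1 bacterial protein and occupy different places, with Mrps18a found in the large subunit. Mrps18a read 117 and 107 FPKM in day 6 OE and 104 and 102 FPKM in day 6 EV, against 156 and 148 FPKM in day 2 OE and 151 and 149 FPKM in day 2 EV. Mrps18b read 79.4 and 78.5 FPKM in day 6 OE and 87.8 and 104 FPKM in day 6 EV, against 153 and 145 FPKM in day 2 OE and 131 and 126 FPKM in day 2 EV. Mrps18c read 160.3 and 166 FPKM in day 6 OE and 185 and 216 FPKM in day 6 EV, against 239 and 239 FPKM in day 2 OE and 212 and 204 FPKM in day 2 EV. Mrps18a and Mrps18b were separate between the days in both OE and EV, while Mrps18c overlapped between the days in EV. In OE, Mrps18a fell by 0.44 (adjusted p = 0.00658), Mrps18b by 0.91 (adjusted p = 0.000176) and Mrps18c by 0.55 (adjusted p = 0.00237). In EV, Mrps18a fell by 0.54 (adjusted p = 0.00337) and Mrps18b by 0.43 (adjusted p = 0.0127), and Mrps18c stood at -0.05 (adjusted p = 0.741).

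**Figure D3:**
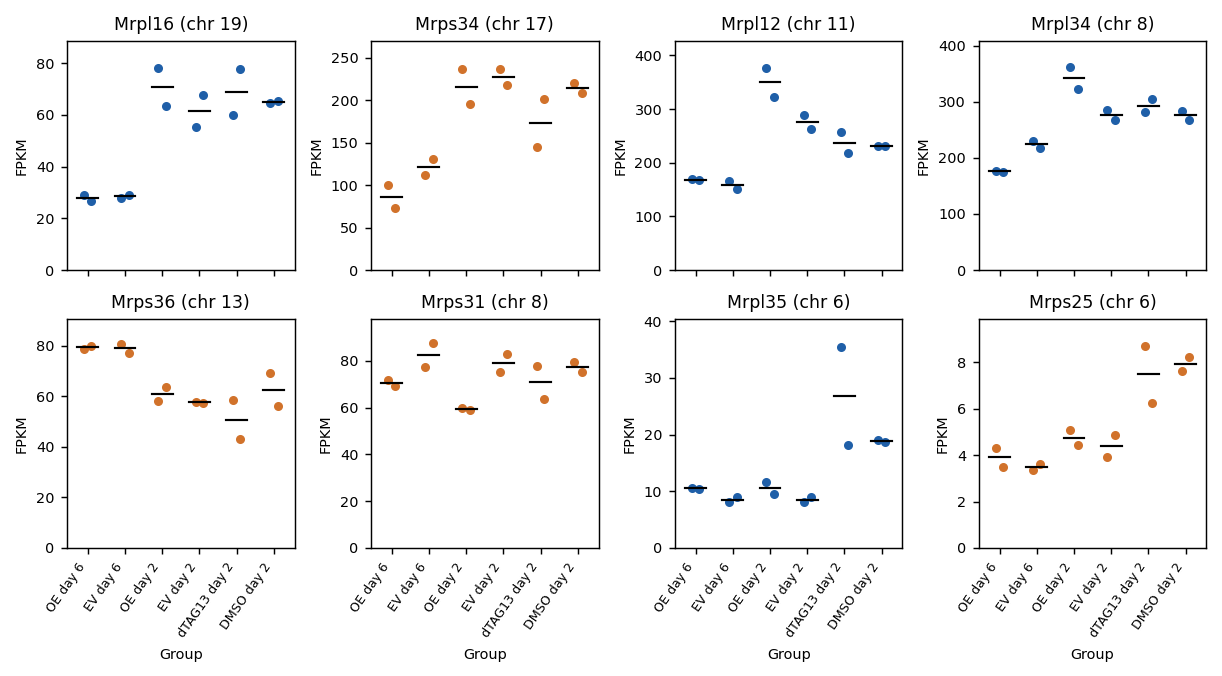
FPKM of 8 members in each library, with a linear axis from 0 in each panel. Points are libraries, bars are means of 2, blue marks the large subunit and orange the small subunit. Mrpl16, Mrps34, Mrpl12 and Mrpl34 are lower at day 6 than at day 2 in OE and EV, Mrps36 is higher, Mrps31 is lowest in day 2 OE, and Mrpl35 and Mrps25 are highest with dTAG13 and DMSO.

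No member passed the test as higher at day 6 in OE or EV with all 12 libraries fitted and no rescaling between them. With quantile normalization 4 were called higher in OE and 2 in EV (5.33% and 2.67%, against 17.1% and 13.3% of all tested genes). With median-ratio scaling 1 was called higher in each (1.33%, against 18% in OE and 14.3% in EV). Mrps36 was the 1 member with all 4 day 6 libraries above the 4 day 2 libraries of OE and EV. Despite its symbol, Mrps36 is known as a component of the 2-oxoglutarate dehydrogenase complex of the citric acid cycle. It read 78.8 and 79.8 FPKM in day 6 OE and 80.5 and 77.2 FPKM in day 6 EV, against 57.9 and 63.5 FPKM in day 2 OE and 57.8 and 57.5 FPKM in day 2 EV. Its log2 change was 0.38 in OE (SE 0.15, adjusted p = 0.0822) and 0.45 in EV (SE 0.15, adjusted p = 0.0591). Among the other members with positive changes, the smallest p values belonged to Mrpl28 (0.22, adjusted p = 0.11) and Mrps31 (0.24, adjusted p = 0.154) in OE, and to Mrps9 (0.31, adjusted p = 0.191) and Mrps31 (0.06, adjusted p = 0.782) in EV. Processed pseudogenes of Mrps36, Mrpl23 and Mrpl48 are annotated, and how reads shared with them were counted is not given in the sources used here.

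The fall was compared between OE and EV, which share no library in these comparisons. Of the members that fell, 20 did so in both, which was 55.6% of the OE list and 87.0% of the EV list. Over all tested genes that fell, 939 did so in both, 52.9% of the OE list and 74.3% of the EV list. The other 3 members of the EV list were Mrpl23, Mrpl30 and Mrps2. Across the 75 members the changes in OE and EV had Pearson's r of 0.73 and Spearman's rho of 0.69, as a description over genes that share the same libraries. The mean level of a member had little relation to its change, with r of -0.23 in OE and 0.01 in EV.

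**Figure D4:**
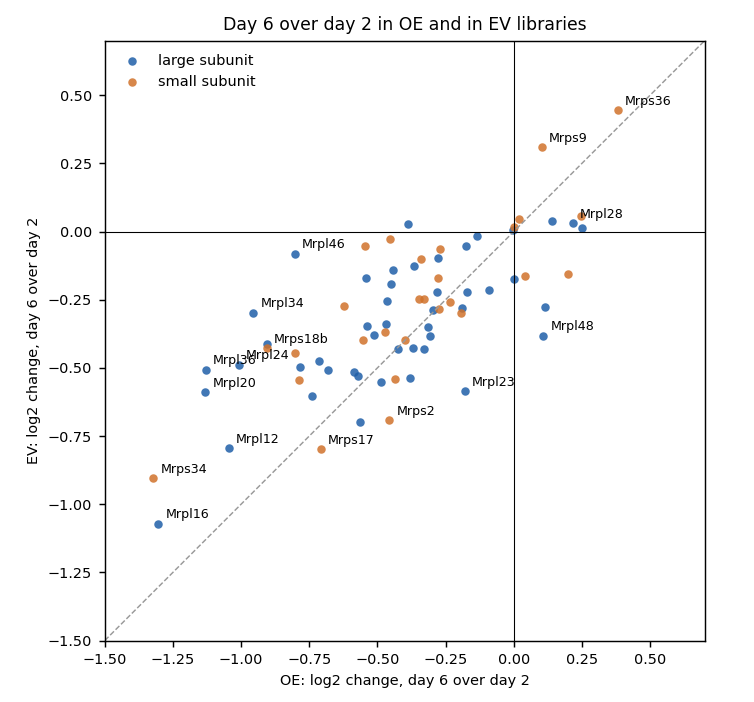
Each point is a member, with its log2 change from day 2 to day 6 in OE on the x axis and in EV on the y axis. Blue is the large subunit, orange the small subunit, and the dashed line marks equal change. Most points lie at the lower left, below 0 on both axes, Mrps34 and Mrpl16 are the farthest, and Mrpl46 and Mrpl34 lie above the line with a larger fall in OE (-0.80 and -0.95) than in EV (-0.08 and -0.30).

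Both subunits stood lower at day 6, and the difference between them was not tested. At day 6 over day 2 the median large subunit gene stood at -0.42 in OE and -0.34 in EV, and the median small subunit gene at -0.34 in OE and -0.25 in EV. The difference between those medians was -0.08 in OE and -0.09 in EV. The ratio of summed small to summed large subunit FPKM was 0.576 and 0.580 in day 6 OE against 0.551 and 0.556 in day 2 OE. In EV it was 0.588 and 0.591 at day 6 and 0.586 and 0.563 at day 2. The ratio at day 6 was thus 1.04 of that at day 2 in OE and 1.03 of it in EV. With Mrps18a and Mrps30, which sit in the large subunit, counted there and Mrps36 left out, the same figures were 1.01 in OE and 1.02 in EV. From the median gene of each subunit in place of the sums they were 0.921 in OE and 0.945 in EV, which turns the direction.

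Genes named after bacterial proteins were set beside the other members, a split made with these results known. In the large subunit the split used the number in the symbol alone. The others there can therefore include genes with a bacterial counterpart, such as Mrpl47. In OE, 15 of 28 large subunit genes with a bacterial name fell (median -0.45), as did 9 of 19 of the others (median -0.37). In EV the counts were 11 of 28 (median -0.39) and 2 of 19 (median -0.29). In the small subunit 9 of 18 genes with a bacterial counterpart fell in OE and 7 of 18 in EV, with 3 of 10 of the others in each. No test of these differences was made.

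The number of calls depended on the libraries used. Without D2_dTAG replicate 1, which enters these comparisons through the shared error alone, 49 members fell and 2 rose in OE, and 40 fell and 2 rose in EV. In that fit the calls of all tested genes also grew, to 25.7% lower and 33.2% higher in OE and to 22.7% lower and 29.4% higher in EV. In OE the count of members that fell was 25 without D6_OE replicate 1 (33.3%, against 8.99% of all tested genes) and 17 without D6_OE replicate 2 (22.7%, against 7.36%). It was 17 without D2_OE replicate 1 (22.7%, against 7.07%) and 33 without D2_OE replicate 2 (44.0%, against 11.2%). In EV the count was 6 without D6_EV replicate 1 (8.0%, against 3.71%) and 11 without D6_EV replicate 2 (14.7%, against 5.81%). It was 6 without D2_EV replicate 1 (8.0%, against 5.11%) and 9 without D2_EV replicate 2 (12%, against 5.13%), so the member share in EV came close to that of all tested genes in some of these fits. The median member ran from -0.53 to -0.26 in OE and from -0.33 to -0.28 in EV over these fits. Of the 8 members with the largest called falls in EV, Mrps2 and Mrpl55 were no longer called without any 1 of the 4 EV libraries (adjusted p of 0.0514 to 0.109 for Mrps2 and 0.0674 to 0.144 for Mrpl55). Mrpl15 was not called without D2_EV replicate 1 (adjusted p = 0.0942), D2_EV replicate 2 (adjusted p = 0.124) or D6_EV replicate 1 (adjusted p = 0.196). Mrps34 had adjusted p = 0.0606 without D2_EV replicate 1 and adjusted p = 0.0767 without D6_EV replicate 1.

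OE was then compared with EV at day 2. Most mitochondrial ribosomal protein genes read slightly higher in OE, yet 0 of 75 passed the test in either direction, against 0.440% higher and 0.406% lower among all tested genes. The median member stood at 0.16 (large 0.18, small 0.12), against 0.04 for all tested genes, and 64 of 75 were positive (85.3%, against 55.3% of all tested genes). At an unadjusted p below 0.05 there were 13 members, against 12.3% of all tested genes. Both OE libraries were above both EV libraries for 39 members, against 31.1% of all tested genes, and below them for 5, against 22.6%. Either direction together, 0.846% of all tested genes were called. FPKM values were not rescaled between libraries in this fit, and their sums were 673435 and 613789 in day 2 OE, against 604959 and 606562 in day 2 EV. With median-ratio scaling 0 members were called higher and 1 lower, against 0.639% and 0.78% of all tested genes. The part of the library sums in the shift was not tested.

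Mrpl36 had the smallest p in that comparison, with 165 and 142 FPKM in OE against 105 and 107 FPKM in EV at day 2. The difference was 0.52 (SE 0.10, adjusted p = 0.0544), and both OE libraries were above both EV libraries. Mrps12 read 311 and 257 FPKM in OE against 223 and 179.6 FPKM in EV (0.50, adjusted p = 0.118). Mrpl2, counterpart of a bacterial protein close to the peptidyl transferase centre, read 207 and 178 FPKM in OE against 141 and 148 FPKM in EV (0.41, adjusted p = 0.136). Without D2_dTAG replicate 1, 7 members were called higher and 1 lower (9.33% and 1.33%, against 8.01% and 6.02% of all tested genes), Mrpl36, Mrps12 and Mrpl2 among those higher (adjusted p = 0.00526, 0.0153 and 0.0172). Day 2 OE replicate 1 was the higher of its pair for all 3 genes, and the median member stood at 0.07 without it and at 0.26 without D2_OE replicate 2.

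Among members that read lower in day 2 OE, Mrps31 read 59.6 and 59.1 FPKM in OE against 75.4 and 83 FPKM in EV. The OE pair was below the EV pair, at -0.41 (SE 0.12, adjusted p = 0.18). Mrps31, a mitochondria-specific small subunit protein, lies at 22411361 to 22429665 on chromosome 8, and the 10 nearest tested genes had a median of -0.46 in the same comparison and -0.43 at day 6, so the nearby genes read lower in OE as well. Under quantile normalization the adjusted p of Mrps31 was 0.0264 and under median-ratio scaling 0.0342. Mrpl23 (-0.27, adjusted p = 0.52) and Mrpl32 (-0.23, adjusted p = 0.583) came next.

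At day 6 OE and EV also gave 0 calls in either direction, against 1.92% higher and 1.79% lower among all tested genes (3.72% in all), with 11 members at an unadjusted p below 0.05, against 18.0% of all tested genes. The median member stood at 0.04 (large 0.06, small 0.01), against 0.05 for all tested genes. The OE pair lay above the EV pair for 24 members (39.3% of all tested genes) and below it for 22 (29.5%). Mrpl34 read 177 and 176 FPKM in OE against 230.2 and 218 FPKM in EV (-0.35, SE 0.09, adjusted p = 0.0715). Mrps30 read 82.1 and 94.7 FPKM in OE against 60.0 and 57.8 FPKM in EV (0.57, SE 0.22, adjusted p = 0.21). The pairs did not overlap for either gene, and they lay in opposite directions. Mrpl38 (0.40, adjusted p = 0.167), Mrpl52 (0.41, adjusted p = 0.206), Mrpl20 (-0.32, adjusted p = 0.156) and Mrps18c (-0.29, adjusted p = 0.146) completed the members with the smallest p in each direction. Without D2_dTAG replicate 1, 4 members were called higher and 5 lower (5.33% and 6.67%, against 14.3% and 11% of all tested genes).

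The test of whether the difference between OE and EV itself differed between the days gave 0 calls among 75 members in either direction, against 0.0663% higher and 0.166% lower among all tested genes (0.232% in all), and 12 members at an unadjusted p below 0.05, against 10.8%. The median member stood at -0.10, against 0.01 for all tested genes. Mrpl34 had the smallest p, at -0.66 (SE 0.13, adjusted p = 0.0904), its OE over EV values being -0.35 at day 6 and 0.31 at day 2. Mrpl36 stood at -0.62 (adjusted p = 0.124) and Mrpl24 at -0.52 (adjusted p = 0.19). In the other direction Mrpl48 stood at 0.49 (adjusted p = 0.378), Mrpl23 at 0.41 (adjusted p = 0.534) and Mrpl28 at 0.19 (adjusted p = 0.711). Without D2_dTAG replicate 1, 7 members were called lower (9.33%, against 5.55% of all tested genes), with adjusted p = 0.00763 for Mrpl34. In 11 members OE was below EV without overlap at day 6 and above it without overlap at day 2: Mrpl20, Mrpl24, Mrpl34, Mrpl36, Mrpl37, Mrpl45, Mrpl46, Mrps16, Mrps18b, Mrps18c and Mrps21. The same pattern held for 7.15% of all tested genes. These comparisons share the OE and EV libraries with those between days.

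**Figure D5:**
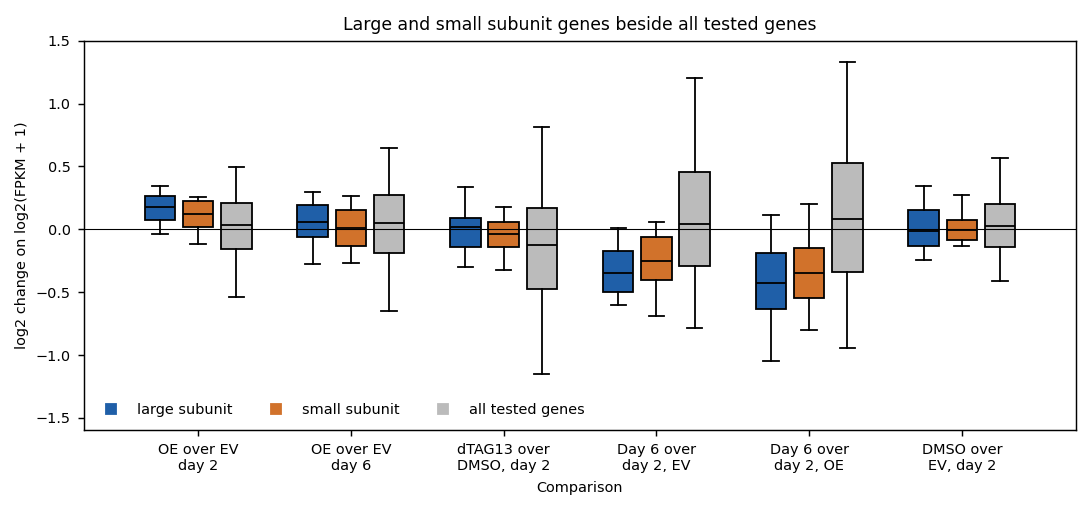
Log2 change on log2(FPKM + 1), on the y axis, of large subunit genes (blue, 47), small subunit genes (orange, 28) and all 12059 tested genes (grey) in 6 comparisons. Boxes span the quartiles with the median as a line, and whiskers run from the 5th to the 95th percentile. Both subunits lie below 0 in the 2 comparisons of day 6 with day 2 and around 0 elsewhere, apart from a small positive shift in OE over EV at day 2 (medians 0.18 and 0.12).

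dTAG13 and DMSO were compared at day 2, where few members differed. Of the 75 members 1 was higher and 1 lower, against 4.01% higher and 8.21% lower among all tested genes (12.2% in all). At an unadjusted p below 0.05 there were 6 members, against 31.5% of all tested genes. The dTAG13 pair lay above the DMSO pair for 8 members (13.8% of all tested genes) and below it for 18 (34.7%). The median member stood at -0.03 (large 0.02, small -0.04), against -0.13 for all tested genes. Mrps18b read 160.3 and 154 FPKM with dTAG13 against 121 and 120.3 FPKM with DMSO, a rise of 0.37 (SE 0.10, adjusted p = 0.0389). Mrps27, a pentatricopeptide repeat protein of the small subunit, read 63.4 and 65.7 FPKM with dTAG13 against 86.8 and 81.1 FPKM with DMSO, a fall of 0.37 (SE 0.10, adjusted p = 0.0448). Pairs were tight and separate for both genes.

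Both dTAG13 calls were lost in several fits. Without D2_dTAG replicate 1 the adjusted p was 0.0509 for Mrps18b and 0.0519 for Mrps27. Without D2_DMSO replicate 1 it was 0.178 for Mrps18b and 0.249 for Mrps27, and without D2_DMSO replicate 2 it was 0.181 and 0.151 for the same genes. With the 4 libraries of the comparison alone 0 genes of the whole table were called. Without D2_dTAG replicate 2, which leaves the library with many genes at 0, 13 members were called higher and 6 lower (17.3% and 8.0%, against 26.3% and 33.9% of all tested genes).

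DMSO and EV at day 2 come from separate arms of the study, and 0 of 75 members passed in either direction, against 0.249% higher and 0.141% lower among all tested genes (0.390% in all; 9 members at an unadjusted p below 0.05, against 8.92%). The median member stood at -0.01, against 0.03 for all tested genes. The DMSO pair lay above the EV pair for 15 members (29.5% of all tested genes) and below it for 23 (22.7%). Mrpl35, counterpart of a bacterial large subunit protein, read 19.1 and 18.7 FPKM with DMSO against 8.04 and 8.93 FPKM in EV (1.07, SE 0.26, adjusted p = 0.188). The dTAG13 libraries read 35.4 and 18.2 FPKM, and the OE and EV libraries of both days lay between 8.04 and 11.6 FPKM, so the 4 libraries of the dTAG13 arm were above all 8 others. The 10 nearest tested genes on chromosome 6 had a median of 0.03 for DMSO over EV. Without D2_dTAG replicate 1 the adjusted p of Mrpl35 was 0.000385, and 4 members were called higher (5.33%, against 5.37% of all tested genes).

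Mrps25, a mitochondria-specific small subunit protein and the lowest member, split in the same way. It read 7.63 and 8.23 FPKM with DMSO and 8.71 and 6.26 FPKM with dTAG13, against 3.36 to 5.10 FPKM in the 8 OE and EV libraries. DMSO over EV stood at 0.74 (SE 0.22, adjusted p = 0.317), and the 10 nearest tested genes on chromosome 6 stood at a median of 0.94. Mrpl33 stood at 0.38 (adjusted p = 0.193). On the lower side Mrpl28 stood at -0.25 (adjusted p = 0.444), Mrpl32 at -0.32 (adjusted p = 0.534) and Mrpl12 at -0.25 (adjusted p = 0.578).

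Other genes of mitochondrial translation were counted in the comparison of days, where background calls were 14.7% lower in OE and 10.5% lower in EV. Of 5 mitochondrial ribosome proteins with other names, 1 fell in OE and 0 in EV: Aurkaip1, by 0.45 (adjusted p = 0.036). Of 37 translation and ribosome assembly factors, 8 fell in OE and 3 in EV, and 0 rose. Tufm, the mitochondrial elongation factor that delivers aminoacyl-tRNA, fell by 1.08 in OE (adjusted p = 0.000816) and by 0.76 in EV (adjusted p = 0.00761). Fastkd2, which binds mitochondrial ribosomal RNA, fell by 0.76 in OE and by 0.71 in EV (adjusted p = 0.00556 and 0.0106). Mtg2, a GTPase of large subunit assembly, fell by 1.08 in OE (adjusted p = 0.00609), and Rbfa, a small subunit maturation factor, by 0.66 in OE and 0.40 in EV (adjusted p = 0.00288 and 0.0397).

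Of 20 mitochondrial aminoacyl-tRNA enzymes, 5 fell in OE and 1 in EV. Yars2, the tyrosyl enzyme, fell by 0.76 in OE (adjusted p = 0.00323) and by 0.85 in EV (adjusted p = 0.00283). Of 13 genes of mitochondrial transcription and of regulators of mitochondrial gene sets, 4 fell and 1 rose in OE, and 3 fell in EV. Myc fell by 4.05 in OE (adjusted p = 1.93e-05) and by 2.36 in EV (adjusted p = 0.000544). Mycn fell by 1.78 in EV (adjusted p = 0.000674), and Tfam, which packages mitochondrial DNA and starts its transcription, fell by 0.53 in each (adjusted p = 0.0329 in OE and 0.042 in EV). Gabpb1, a subunit of an ETS-family factor, rose by 0.44 in OE (adjusted p = 0.0356).

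Cytosolic ribosomal protein genes gave a second ribosome for comparison. Of 87, 27 fell and 1 rose in OE (31.0% and 1.15%, against 14.7% and 17.5% of all tested genes). In EV 23 fell and 3 rose (26.4% and 3.45%, against 10.5% and 13.3%). Their medians were -0.20 in OE and -0.27 in EV. Rps13 fell by 0.69 in OE (adjusted p = 0.000452) and by 0.74 in EV (adjusted p = 0.000636). With dTAG13 the cytosolic set had a median of 0.14, against -0.03 for the mitochondrial set. Of the 87, 4 were higher and 1 lower with dTAG13 (4.60% and 1.15%, against 4.01% and 8.21% of all tested genes). The share of summed FPKM below is that of the cytosolic set. Their share of the summed FPKM ran from 14.6% to 19.3% over the 12 libraries.

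In the remaining comparisons the related lists gave few calls. Cars2, the mitochondrial cysteinyl enzyme, fell in OE by 1.13 at day 6 (adjusted p = 0.00157) and by 0.78 at day 2 (adjusted p = 0.0169). It was the 1 enzyme called of 20 on each day (5%, against 1.79% of all tested genes lower at day 6 and 0.406% at day 2). At day 6, 1 of the 13 transcription genes and regulators was also called lower in OE (7.69%). In that list Myc read 5.06 and 3.45 FPKM in OE against 8.92 and 17.2 FPKM in EV at day 6. Of the 87 cytosolic ribosomal protein genes, 1 was higher and 2 lower in OE at day 6 (1.15% and 2.30%, against 1.92% and 1.79% of all tested genes). With dTAG13 the mitochondrial leucyl enzyme Lars2 fell by 1.55 (adjusted p = 0.00326), the GTPase Noa1 by 0.59 (adjusted p = 0.0435), and Myc, Ppargc1b and Pprc1 by 1.02, 0.98 and 0.61 (adjusted p = 0.0432, 0.0287 and 0.0223). Ppargc1b lay near the floor, at 0 and 0.569 FPKM with dTAG13 against 1.33 and 1.62 FPKM with DMSO. Its value of 0 came from D2_dTAG replicate 1, the library with many genes at 0. The calls of these listed genes were not followed without single libraries.

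Genes that start beside a member were followed between the days. Of 29 tested pairings, in which Mrpl46 and Mrps11 stand for each other, 11 partners fell and 3 rose in OE, and 4 fell and 2 rose in EV. The 11 that fell in OE include Mrps11 and Mrpl46, so the partner counts and medians hold member values in part. Among all tested genes 14.7% fell and 17.5% rose in OE, and 10.5% fell and 13.3% rose in EV. The partner median was -0.14 in OE and -0.15 in EV, against -0.51 and -0.37 for the members of those pairs. Eme2, a DNA repair nuclease subunit that starts 29 bases from Mrps34, fell by 1.38 in OE (adjusted p = 0.000788) and by 1.46 in EV (adjusted p = 0.00108). Tcp1, a cytosolic chaperonin subunit beside Mrpl18, fell by 0.56 in OE (adjusted p = 0.00542) and by 0.40 in EV (adjusted p = 0.0345). Wdfy1, beside Mrpl44, rose by 0.70 in OE (adjusted p = 0.00609), where Mrpl44 fell by 0.51 (adjusted p = 0.0142). These partners were chosen after their values were seen. In all, 35 members overlap another annotated gene, 30 of them on the opposite strand, and with the strand use of the counting not given, reads of such pairs may be shared.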

How the data were processed

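Poly(A)-enriched RNA of sorted mouse PGCLCs was sequenced, per the labels. Per the submitters' processing notes, reads were handled with FastQC 0.10.1, Trim Galore 0.6.3, cutadapt, STAR 2.7.6a and Cufflinks 2.2.1 and the build was mm10. The deposited FPKM table of the authors holds 12955 genes in 12 libraries and carries an added 1, inferred from the digits of the values, which was subtracted. Depth per library is unknown, so no counting error is given, and low FPKM values are the least precise.

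The filter kept genes of at least 1 FPKM in 2 libraries. A single limma model (version 3.58.1, R 4.3.3) of all 6 groups, with 6 residual degrees of freedom and a trended prior variance, was fitted to log2 values after adding a pseudocount of 1, and p-values were adjusted by Benjamini-Hochberg over all genes kept. The scale understates changes of low genes. The test was checked on simulated data whose noise had the same spread in every library at a given level. That check held no library like D2_dTAG replicate 1, so it does not cover the effect of that library on the calls. Medians, shares and ratios are descriptions. Levels are means over n = 2 libraries per group unless given per library. Dependence on pseudocount, filter, scaling, a replicate block, trend, the groups fitted, subunit assignment and single libraries was examined.

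Named members were the 4 highest and 3 lowest of each subunit, up to 8 called per direction and comparison, or else 3 with the smallest p, plus Mrps18a, Mrps18b, Mrps18c, Mrps30, Mrps36, Mrpl12 and Mrps12. Related lists name up to 3 called genes. Members and lists were chosen with earlier results of these data known. Positions and promoters came from GENCODE M21 and RefSeq by symbol. Protein sequences were not used here. Python 3.11.15, pandas 2.3.3, numpy 2.4.6 and matplotlib 3.10.9 were used.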

Additional observations from a re-analysis of the deposited data

How the results depend on the processing

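Pseudocounts of 0.1 and 5 and the absence of a filter moved no count of member calls by more than 1.5 times. Percentages in brackets in this paragraph are the shares of all tested genes called in the same direction and fit. With quantile normalization members called higher were 2 with dTAG13 (6.05%), 4 at day 6 over day 2 in OE (17.1%) and 2 in EV (13.3%). Those called lower were 6 in OE over EV at day 6 (5%), 1 at day 2 (0.904%), 1 for the difference of OE effects (0.713%) and 0 with dTAG13 (5.84%). That normalization also set the median member at -0.22 at day 6 over day 2 in OE. There it called 26 members lower (18.4%), which was 34.7% of members, and 23 of them were among the 36 called without it. In EV it called 20 members lower (14.6%), which was 26.7% of members, and 14 of them were among the 23 called without it. With median-ratio scaling members called higher were 2 with dTAG13 (5.86%), 1 at day 6 over day 2 in OE (18%) and 1 in EV (14.3%). Those called lower were 1 in OE over EV at day 6 (2.79%), 1 at day 2 (0.78%) and 0 with dTAG13 (4.93%). With only the groups compared in the fit, members called higher were 4 in OE over EV at day 6 (16.3%), 2 at day 2 (4.3%) and 0 with dTAG13 (0%). At day 6 over day 2 they were 3 in OE (35.4%) and 1 in EV (25.5%), with 1 in DMSO over EV (1.19%). Those called lower were 6 in OE over EV at day 6 (12.1%), 0 with dTAG13 (0%), 37 at day 6 over day 2 in EV (19.2%) and 6 for the difference of OE effects (4.82%). Without a trend 0 were called higher (3.85%) and 0 lower (7.89%) with dTAG13, and 15 lower at day 6 over day 2 in EV (9.04%). The cause was not tested.

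Replicate numbers are shared between groups. The replicate 2 minus replicate 1 differences of log2 values, correlated over genes between groups, had r from -0.14 to 0.25. The highest r, 0.252, was for EV at day 2 with EV at day 6, and OE at day 2 with OE at day 6 had 0.136. Whether replicates were paired within OE or EV was not tested. The replicate block below was a single term common to all groups. With a replicate block 36 members fell at day 6 in OE (34 of them called without it) and 23 in EV, and 0 fell with dTAG13 (Mrps27 at adjusted p = 0.057). In the same fits 14.5%, 10.1% and 7.22% of all tested genes fell.

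The ratio of small to large subunit FPKM, day 6 over day 2, was 0.921 in OE and 0.945 in EV from subunit medians, and 1.006 in OE by structural placement.

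Leaving out single libraries gave these ranges of members called higher and lower: 0 to 7 and 0 to 1 in OE over EV at day 2, 0 to 4 and 0 to 5 at day 6, 0 to 13 and 0 to 6 with dTAG13, 0 to 2 and 17 to 49 at day 6 over day 2 in OE, 0 to 2 and 6 to 40 in EV, 0 to 0 and 0 to 7 for the difference of OE effects, and 0 to 4 and 0 to 0 in DMSO over EV. The shares of all tested genes at the upper ends of these ranges are given above with each comparison. The median member at day 6 over day 2 in OE ran from -0.534 to -0.262.

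Of 646 repeats for 48 named results, 572 kept their side of the threshold, 48 gained a call, 26 lost one and 0 called changes turned direction, while the uncalled day change of Mrps31 in EV (0.06) was -0.01 without D2_EV replicate 1 and -0.03 without D6_EV replicate 2. With 2 libraries per group and no counts, depth limits on low members such as Mrps25 cannot be stated.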
